A study of Arabidopsis thaliana with 16 samples.

Results

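The genes described here are 58 nuclear genes of Arabidopsis thaliana that encode proteins of the cytosolic ribosome, among 32548 genes with a value. They were chosen by locus from a list of genes for the large (60S) and small (40S) subunits of that ribosome, and genes of plastid and mitochondrial ribosomes were left out. The list does not hold every cytosolic ribosomal protein gene, and 155 more loci serve as a comparison list further on. The reference gives an own symbol to 26 of the 58, of which 16 name a 60S protein and 9 a 40S protein. BBC1, whose reference synonym names the other subunit than its usual assignment, was placed in neither. The other 32 are called by locus, with no family given.

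The cytosolic ribosome joins a large subunit, which forms peptide bonds, to a small subunit, which reads the messenger RNA. In Arabidopsis most of its proteins are encoded by several near-identical genes, which are known for strong, broadly shared transcription in growing tissue. Loss of single members is known to give embryo arrest, pointed first leaves or altered leaf polarity, which is where names such as EMB, PFL (POINTED FIRST LEAVES) and PGY (PIGGYBACK) come from. Lysine 2-hydroxyisobutyrylation (Khib) is an acyl mark of histone lysines that is generally found over transcribed genes, and HDA6 and HDA9 are histone deacetylases of the RPD3 class.

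The study mapped Khib by chromatin immunoprecipitation and sequencing in whole seedlings 12 days old, untreated, grown on plates at 22 °C with 16 h of light. The 4 genotypes were the wild type Col-0, quadruple mutants named sant-null, an EMS line of hda6 and a T-DNA insertion line of hda9, with no further allele given in the labels. Each genotype had 2 ChIP and 2 input libraries, 16 in all, and the comparisons ask how Khib over genes differs where SANT-domain proteins or a deacetylase are missing. A ChIP value over HDA6 or HDA9 does not check these labels, since either kind of lesion can leave the DNA of the gene in place, and gene-body ChIP levels do not mark a tissue.

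Each gene has a single ChIP value per genotype in the tables used, so no test was possible. Differences have no replicate check, and intervals hold only the error of counting reads. Values are RPKM, reads per kilobase of gene and per M reads, and their steps show library totals of 18.6 M reads for Col-0, 12 M for sant-null, 16.75 M for hda6 and 38.77 M for hda9. The 58 genes hold 12264, 10426, 14942 and 34582 of these reads. A single gene of the 58 holds 22 to 678 reads in Col-0 and 89 to 1063 in hda9. The lowest count is 7 reads, for AT1G33120 in sant-null. Input values were not used here, so a level mixes the mark with background and with how well reads map. In whole seedlings, fewer cells with the mark and less of the mark per cell cannot be told apart. Where 4 values are given together below, they stand in the order Col-0, sant-null, hda6 and hda9.

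In wild-type seedlings the ribosomal protein genes were not a group of high Khib. Their median level in Col-0 was 5.16 RPKM, with quartiles at 3.16 and 8.74 RPKM, beside a median of 5.63 RPKM over all genes. The median member stood at percentile 46.2 of all genes, and at percentile 44.6 of the 26207 protein-coding genes of at least 500 bp. Of the 58 genes, 11 were in the top 25% of all genes, 14 in the bottom 25%, and 27 above the median gene, while EMB2296 alone reached percentile 92.7. The levels spread over a 29.7-fold range between single members. Gene length did not order them: Spearman's rho between length and level across the 58 genes was -0.01 in Col-0, as a description of 1 value per gene.

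The highest level in Col-0 was that of EMB2296, a gene for a 60S protein at chr2:7837067-7838476. Its levels were 22.5, 19.1, 29.6 and 13.9 RPKM. Its hda6 value was the highest of the 4 and its hda9 value the lowest, and it was the highest of the 58 genes in every genotype. Second in Col-0 was AT3G09630, with 17.7, 15.6, 18.4 and 12.6 RPKM. AT5G02870 followed with 16.6, 16.8, 16.96 and 12.9 RPKM. Both were close to each other in Col-0, sant-null and hda6 and lower in hda9. XW6, which encodes a 40S protein, had 15.0, 14.1, 14.2 and 13.1 RPKM. P40, the gene of the 40S protein SA, known as the plant relative of the animal laminin receptor precursor, had 14.8, 14.4, 19.5 and 12.6 RPKM. AT4G36130 had 13.2, 14.3, 17.4 and 13.4 RPKM. For these 6 genes the hda9 value was the lowest of the 4, except at AT4G36130.

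The 2 lowest genes in Col-0 were neighbours on chromosome 1, 10677 bp apart. PGY2, a 60S gene whose loss alters leaf polarity, lies at chr1:12023225-12024783 and had 0.759, 0.855, 1.15 and 3.56 RPKM. These values rest on 22, 16, 30 and 215 reads. AT1G33120, at chr1:12010879-12012547, had 1.13, 0.350, 0.930 and 1.38 RPKM. PGY2 was higher in hda9 than in the other 3 genotypes, and AT1G33120 was low in all 4. Sequences were not compared, so whether reads are split between these neighbours, or left unplaced, was not checked. PGY1, another 60S gene of the leaf-polarity group, had 1.53, 2.42, 1.98 and 5.09 RPKM. RPS18C, one of the genes for the 40S protein S18, had 2.09, 4.42, 2.73 and 4.33 RPKM. AT5G39850 had 2.09, 3.62, 2.71 and 6.60 RPKM, and AT4G27090 had 2.21, 4.67, 3.60 and 7.80 RPKM. All 6 of these low genes had their highest value in hda9, except RPS18C, whose sant-null value was the highest by a small margin.

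**Figure D1:**
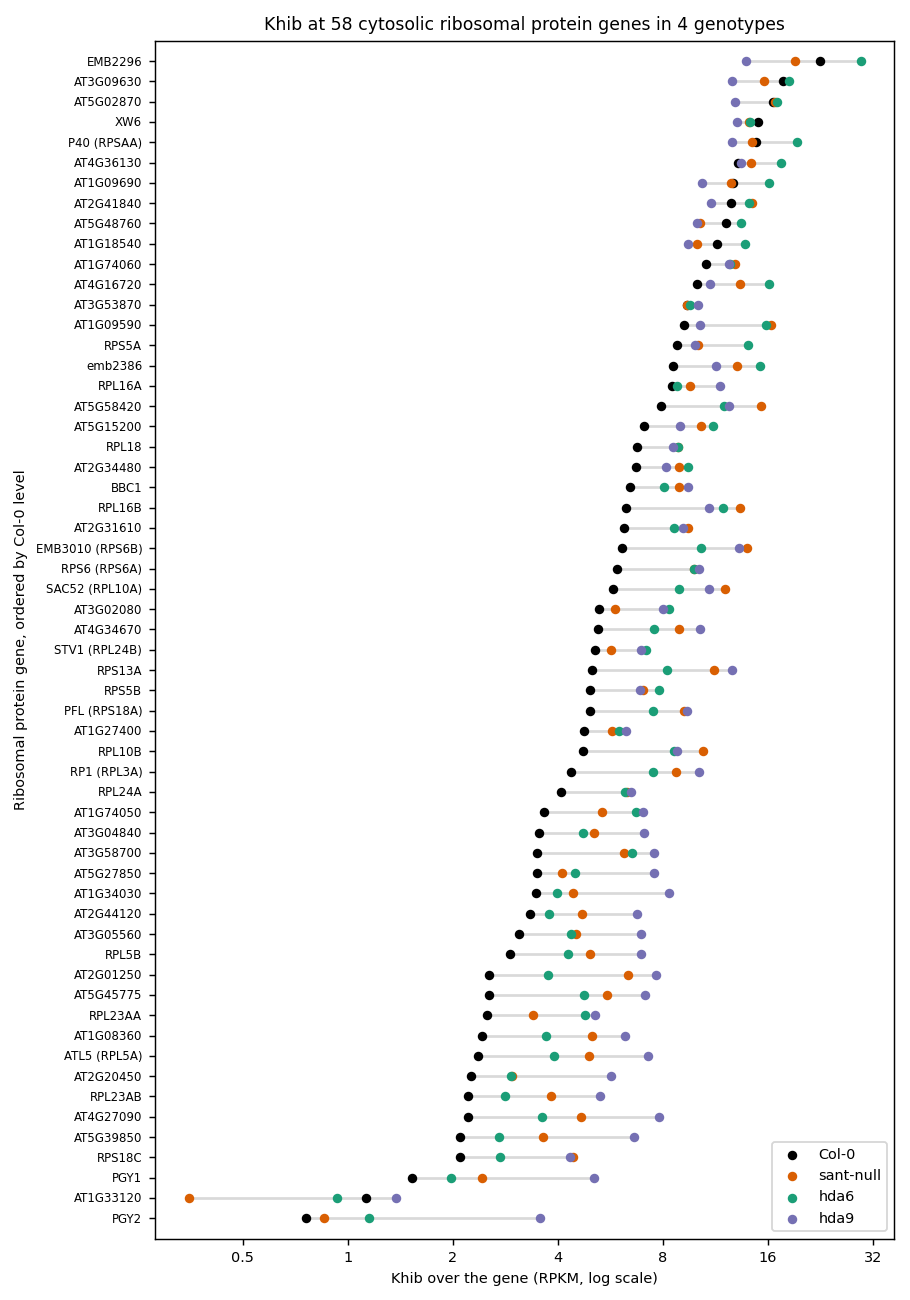
Khib level (RPKM, log scale) of each of the 58 ribosomal protein genes in Col-0 (black), sant-null (orange), hda6 (green) and hda9 (purple), with 1 value per gene and genotype and no replicate error; genes are ordered by Col-0 level and the grey line spans the 4 values. In Col-0 the levels run from 0.759 RPKM at PGY2 to 22.5 RPKM at EMB2296, and the hda9 values crowd between 1.38 and 13.9 RPKM.

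Among the genes with a symbol, the 9 of the small subunit had higher medians than the 16 of the large subunit in each genotype. The 40S medians were 5.92, 10.1, 9.84 and 10.2 RPKM. The 60S medians were 4.54, 7.50, 7.33 and 7.90 RPKM. The 60S group holds both the highest gene, EMB2296, and the lowest, PGY2, and the 40S values lie within the 60S range in each genotype. The difference between subunits was not tested, and the 32 genes without a symbol are in neither group.

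The order of the 58 genes was similar in the 4 genotypes, but their spread was not. Spearman's rho across the 58 genes between the level in Col-0 and that in the mutant was 0.91 for sant-null, 0.97 for hda6 and 0.85 for hda9, as a description of points that share genes and Col-0 values. The median level was 5.16, 8.90, 8.15 and 8.85 RPKM. The median of all genes was 5.63, 7.86, 7.08 and 8.88 RPKM. The median member thus stood at percentile 46.2, 56.9, 56.1 and 49.7 of all genes, which puts it lower in Col-0 and hda9 than in sant-null and hda6. The range between the highest and the lowest member was 29.7-fold for Col-0, 54.6-fold for sant-null, 31.8-fold for hda6 and 10.1-fold for hda9. The ratio of the upper to the lower quartile was 2.77, 2.51, 2.82 and 1.56 over the members and 3.42, 2.75, 3.58 and 1.85 over all genes, so the spread in hda9 was narrower for all genes too. That library set is also the deepest, and the part of depth in this narrowing was not tested.

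Col-0 held the lowest of the 4 values for 48 of the 58 ribosomal protein genes, where 54.8% of all genes had their lowest value there. The highest value was in hda9 for 30 members (52.4% of all genes), in hda6 for 17 (23.9%), in sant-null for 10 (13.7%) and in Col-0 for 1 (10.1%). The single member highest in Col-0 was XW6. The lowest value was in hda9 for 9 members (21% of all genes), in sant-null for 1 (11%) and in hda6 for 0 (13.2%). These counts compare 1 value per genotype, and differences of a few reads decide some of them.

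The next comparisons set each mutant against Col-0, as the log2 ratio of (RPKM + 1). A gene is called higher or lower at a ratio of at least 1.5-fold on that scale, which understates the change of low genes. All 58 members passed the filter on low values, which asks for 1 RPKM or more in 2 or more genotypes and left 31805 genes. The 3 comparisons use the same Col-0 values and are not independent of each other. The median log2 ratio of all genes was 0.28 for sant-null, 0.20 for hda6 and 0.48 for hda9, and members are read against these shifts.

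In sant-null, 19 of the 58 genes were at least 1.5-fold higher than in Col-0, against 23.7% of all genes, and 1 was lower, against 6.01%. The 19 are 32.8% of the members. The remaining 38 were past neither limit. The median log2 ratio of the members was 0.42, which is 0.14 above the median of all genes, and 36 of the 58 were above that median. That distance was 0.06 once the trend of the ratio on the Col-0 level was removed, and 0.04 with quantile normalization. The counting interval of the fold lay above 1 for 36 members (49.9% of all genes) and below 1 for 3 (12.8%). With all 4 genotypes scaled to equal medians, 4 members were higher (5.32% of all genes) and 5 lower (19%). Among genes with a symbol, 6 of the 16 of the 60S subunit and 5 of the 9 of the 40S subunit were higher.

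The highest log2 ratio in sant-null was that of EMB3010, one of the genes for S6, the 40S protein that is phosphorylated downstream of the TOR kinase. It lies at chr5:3258404-3260254 and had 6.13, 13.9, 10.3 and 13.3 RPKM. Its fold in sant-null was 2.27, with a counting interval from 1.90 to 2.72. AT2G01250 came next, with 2.55, 6.35, 3.75 and 7.64 RPKM and a fold of 2.49 in sant-null. RPS13A, a 40S gene whose mutants have pointed first leaves, had 5.01, 11.2, 8.21 and 12.6 RPKM. Its fold in sant-null was 2.24, with an interval from 1.79 to 2.81. These 3 genes had sant-null and hda9 values above their hda6 values.

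The like-named members RPL10B and SAC52, for the 60S protein L10, were both among the 8 highest in sant-null. RPL10B had 4.72, 10.5, 8.62 and 8.77 RPKM. SAC52, the RPL10A gene, first found as a suppressor of the dwarf mutant acaulis5, had 5.74, 12.1, 8.93 and 10.8 RPKM. Their folds in sant-null were 2.22 and 2.11. RPL16B, a 60S gene, had 6.27, 13.3, 11.9 and 10.8 RPKM, with sant-null the highest. AT5G45775 had 2.53, 5.55, 4.77 and 7.13 RPKM. AT5G58420 had 7.89, 15.3, 12.0 and 12.4 RPKM, and was also highest in sant-null.

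At the other end in sant-null stood AT1G33120, the one member called lower. Its 7 reads in sant-null against 35 in Col-0 gave a fold of 0.310, with an interval from 0.116 to 0.708. EMB2296 had a fold of 0.847 there, with an interval from 0.737 to 0.972. The other members at this end were high genes whose values were close in both genotypes. AT5G48760 had 12.1, 10.3, 13.4 and 10.04 RPKM. AT1G18540 had 11.5, 9.998, 13.8 and 9.46 RPKM.

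In hda6, 15 of the 58 genes were at least 1.5-fold higher than in Col-0, against 9.08% of all genes, and 0 were lower, against 3.05%. The 15 are 25.9% of the members, and 43 were past neither limit. The members' median log2 ratio was 0.42, which is 0.22 above the median of all genes, and 48 of the 58 were above that median. Of the 58, 56 had a ratio above 0, over a range from -0.14 to 0.83. The counting interval lay above 1 for 41 members (43.8% of all genes) and below 1 for 0 (6.48%). The calls lie close to the limit: with equal medians 0 members were higher (2.11% of all genes) and 0 lower (7.99%), while the median relative to all genes was again 0.22. Among genes with a symbol, 5 of the 16 of the 60S subunit and 4 of the 9 of the 40S subunit were higher.

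RPL16B had the highest log2 ratio in hda6. Its fold was 1.91, with an interval from 1.55 to 2.35. The gene emb2386, for a 60S protein needed for embryo development, had 8.55, 13.1, 15.2 and 11.3 RPKM and a fold of 1.77 in hda6. RPL10B had a fold of 1.83 there. AT3G58700 had 3.50, 6.17, 6.55 and 7.57 RPKM. AT1G74050 had 3.66, 5.37, 6.72 and 7.01 RPKM, and lies 208 bp from the member AT1G74060, which had 10.6, 12.9, 12.5 and 12.3 RPKM. These neighbours thus differed in level and in their ratios. AT1G09590 had 9.18, 16.3, 15.9 and 10.2 RPKM, so its hda9 value was near that of Col-0. RPL23AA, a 60S gene, had 2.51, 3.39, 4.79 and 5.10 RPKM and a fold of 1.91 in hda6. AT5G45775, described above for sant-null, was the eighth of this group.

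The lowest ratios in hda6 were near 1-fold. AT1G33120 had a fold of 0.825, with an interval from 0.477 to 1.41, and XW6 one of 0.946. AT3G53870 had 9.40, 9.40, 9.54 and 10.1 RPKM, nearly the same level in each genotype. AT5G02870 had a fold of 1.02 in hda6.

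In hda9, 30 of the 58 genes were at least 1.5-fold higher than in Col-0, against 43.7% of all genes, and 1 was lower, against 9.08%. The 30 are 51.7% of the members, and 27 were past neither limit. The members' median log2 ratio was 0.64, which is 0.16 above the median of all genes, and 34 of the 58 were above that median. The ratios ran from -0.66 to 1.45. The counting interval lay above 1 for 43 members (63.1% of all genes) and below 1 for 9 (18.6%). With equal medians 8 members were higher (14.2% of all genes) and 9 lower (25.6%). Once the trend of the ratio on the Col-0 level was removed, 0 were higher (6.21% of all genes) and 1 was lower (7.2%), and the members' median relative to all genes was 0.0084. In the 60S group 10 of 16 were higher and 1 lower, and in the 40S group 5 of 9 were higher.

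The 8 highest ratios in hda9 belonged to genes below the median member in Col-0. AT4G27090, at chr4:13593844-13595252, had the highest log2 ratio, 1.45, and a fold of 3.52. PGY2 had the largest fold, 4.69, with an interval from 3.02 to 7.64 that reflects its 22 reads in Col-0. ATL5, the RPL5A gene, whose product is the 60S protein that binds the small ribosomal RNA of that subunit, had 2.36, 4.91, 3.90 and 7.26 RPKM and a fold of 3.08. PGY1 had a fold of 3.32. These low genes stood between 3.56 and 7.80 RPKM in hda9, below the median member of that genotype. AT5G39850 had a fold of 3.15, AT2G01250 one of 2.997 and AT5G45775 one of 2.81. RPS13A, with a fold of 2.52, was the one among the 8 whose hda9 level, 12.6 RPKM, was in the upper part of the range.

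The lowest ratios in hda9 belonged to genes with high levels in Col-0. EMB2296 was the member called lower, with a fold of 0.616 and an interval from 0.553 to 0.687. AT3G09630 had a fold of 0.710 and AT5G02870 one of 0.776. AT1G09690 had 12.7, 12.6, 16.2 and 10.4 RPKM and a fold of 0.815 in hda9.

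**Figure D2:**
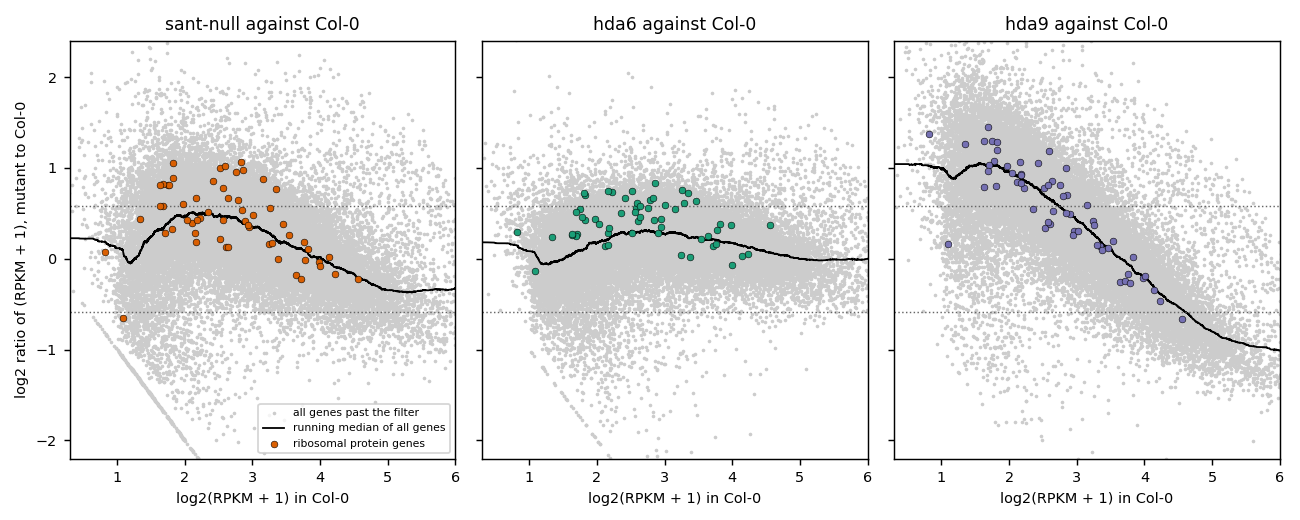
Log2 ratio of (RPKM + 1), mutant to Col-0, against the Col-0 level for the 58 ribosomal protein genes (coloured) and all genes past the filter (grey), with the running median of all genes (black line) and the 1.5-fold limits (dotted); genes beyond the axis limits are not drawn, and the Col-0 value enters both axes. The members follow the falling line in hda9, from 1.37 at PGY2 to -0.66 at EMB2296, and lie around it in sant-null. In hda6 they lie mostly above it, and with this trend removed their median relative to all genes is 0.21. There, 48 of 58 are above the single median of all genes, 0.20, which is not the drawn line.

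In hda9 and sant-null, how often members were called higher followed their Col-0 level, as it did for all genes. The genes were split at 5.78 RPKM, the median Col-0 level of the genes past the filter, and the Col-0 value enters both the split and the ratio. Of the 32 members below it, 26 were higher in hda9, against 74.4% of all genes below it. Of the 26 members above it, 4 were higher (13% of all genes above it) and 1 was lower (16.6%). None of the 32 was lower (1.57%). In sant-null 14 of the 32 were higher (33.5%) and 1 lower (6.23%), while 5 of the 26 were higher (14%) and 0 lower (5.8%). In hda6 the shares were alike: 7 of the 32 and 8 of the 26 were higher, each against 9.08% of all genes, and 0 were lower (4.95% and 1.16%). The members' median log2 ratio in hda6 was 0.45 below the limit and 0.37 above it, where all genes had 0.19 and 0.20.

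Side by side, 8 members were at least 1.5-fold higher in each of the mutants, against 4.44% of all genes, and the shared Col-0 values help to set both counts. They were RP1 (RPL3A, a 60S protein at the peptide-bond centre), RPL10B, RPL16B, the S6 genes RPS6 and EMB3010, RPS13A, AT3G58700 and AT5G45775. RP1 had 4.36, 8.71, 7.51 and 10.2 RPKM. RPS6 had 5.92, 9.81, 9.84 and 10.2 RPKM, so its mutant values were nearly equal. Another 21 members were past the limit in none of the mutants, against 39.2% of all genes. These included high genes such as XW6 and P40, and genes of middle level such as RPL18, a 60S gene with 6.74, 8.83, 8.86 and 8.54 RPKM. RPS5B, a 40S gene with 4.94, 7.01, 7.78 and 6.88 RPKM, was also among them, with an hda6 log2 ratio of 0.56 just inside the limit of 0.58.

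The members not yet described fell between these patterns. Of those above the Col-0 median of all genes, AT2G41840 had 12.5, 14.4, 14.2 and 11.0 RPKM, and AT4G16720 had 9.99, 13.3, 16.1 and 11.0 RPKM. AT5G15200 had 7.07, 10.3, 11.2 and 8.93 RPKM. These 3 were higher in sant-null and hda6 than in hda9. AT2G34480 had 6.68, 8.91, 9.43 and 8.19 RPKM, AT2G31610 had 6.17, 9.42, 8.60 and 9.15 RPKM, and BBC1 had 6.45, 8.91, 8.09 and 9.47 RPKM. In each of these the 3 mutants were close to each other and above Col-0.

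Of those below it, AT4G34670 had 5.21, 8.89, 7.53 and 10.2 RPKM, and AT1G27400 had 4.75, 5.71, 6.01 and 6.29 RPKM. The others lay between 2.21 and 3.53 RPKM in Col-0, and in each of them hda9 was the highest. AT3G04840 had 3.53, 5.07, 4.73 and 7.05 RPKM. AT5G27850 had 3.50, 4.11, 4.48 and 7.55 RPKM, and AT2G44120 had 3.33, 4.69, 3.77 and 6.75 RPKM. In these the RPKM of sant-null and hda6 lay nearer to that of Col-0 than to that of hda9. AT3G05560 had 3.10, 4.51, 4.35 and 6.92 RPKM. AT1G08360 had 2.42, 5.002, 3.70 and 6.22 RPKM, and AT2G20450 had 2.26, 2.96, 2.93 and 5.67 RPKM. The 60S genes RPL5B and RPL23AB belong here too. RPL5B had 2.91, 4.95, 4.29 and 6.95 RPKM, and RPL23AB had 2.21, 3.82, 2.82 and 5.30 RPKM.

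Compared directly, with no Col-0 value involved, few members passed the limit between sant-null and hda6. AT2G01250 was higher in sant-null, with 6.35 against 3.75 RPKM, as the 1 such member (9.92% of all genes). EMB2296 was lower in sant-null, with 19.1 against 29.6 RPKM, again the 1 such member (4.18%). Between hda9 and sant-null, 8 members were higher in hda9 (16.7% of all genes) and 1 was lower (4.15%), AT1G09590 with 10.2 against 16.3 RPKM. The 8 included PGY2, with 3.56 against 0.855 RPKM, and PGY1, with 5.09 against 2.42 RPKM. AT1G34030, with 3.46, 4.42, 3.97 and 8.33 RPKM, was another. Between hda9 and hda6, 13 were higher in hda9 (29.7%) and 4 were lower (11.6%). The lower ones were EMB2296, AT1G09690, AT1G09590 and P40, the last with 12.6 against 19.5 RPKM. With equal medians 6 were higher in hda9 (18.8% of all genes) and 13 lower (22.6%). The last 2 comparisons share the hda9 values.

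Of the members with a symbol, 16 form 8 pairs of like-named genes. The copies of a pair are close in sequence, so reads may be split between them, and each ratio is uncertain to that extent. The widest ratio in Col-0 was between PFL (RPS18A), with 4.93, 9.21, 7.48 and 9.42 RPKM, and RPS18C. PFL was 2.36, 2.08, 2.74 and 2.17 times RPS18C in the 4 genotypes, always the higher copy. RPS5A, a 40S gene known for strong activity in dividing cells, had 8.80, 10.1, 14.01 and 9.89 RPKM. It was 1.78, 1.44, 1.80 and 1.44 times RPS5B. In both pairs the counting interval excluded 1 in every genotype.

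The RPL16 pair did not stand in the same order in each genotype. RPL16A, at chr2:17791692-17793142, had 8.49, 9.59, 8.76 and 11.7 RPKM, and RPL16B, at chr4:10302163-10303432, had the values given above. The ratio of RPL16A to RPL16B was 1.35 in Col-0 (interval 1.10 to 1.68), 0.720 in sant-null (0.583 to 0.888), 0.734 in hda6 (0.609 to 0.884) and 1.08 in hda9 (0.961 to 1.21). RPL16A was thus the higher copy in Col-0, RPL16B in sant-null and hda6, and the hda9 interval spanned 1. A ratio within a genotype does not depend on how the genotypes are scaled to each other.

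In the other 5 pairs the copies were nearer to each other in Col-0, and each interval there spanned 1. STV1 (RPL24B), a gene known from fruit patterning and from translation re-initiation, had 5.10, 5.69, 7.14 and 6.93 RPKM. Its copy RPL24A had 4.10, 6.30, 6.22 and 6.47 RPKM. The ratio of STV1 to RPL24A was 1.25, 0.903, 1.15 and 1.07. RPL23AA was 1.13, 0.886, 1.70 and 0.963 times RPL23AB, and its interval excluded 1 in hda6, from 1.28 to 2.28. EMB3010 (RPS6B) was 1.04, 1.42, 1.05 and 1.30 times RPS6, with intervals above 1 in sant-null and hda9. RPL5B was 1.23, 1.01, 1.10 and 0.957 times ATL5, and each interval spanned 1. SAC52 was 1.22, 1.16, 1.04 and 1.24 times RPL10B, with an interval above 1 in hda9. Over the 8 pairs the interval excluded 1 in 3, 4, 4 and 4 pairs.

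**Figure D3:**
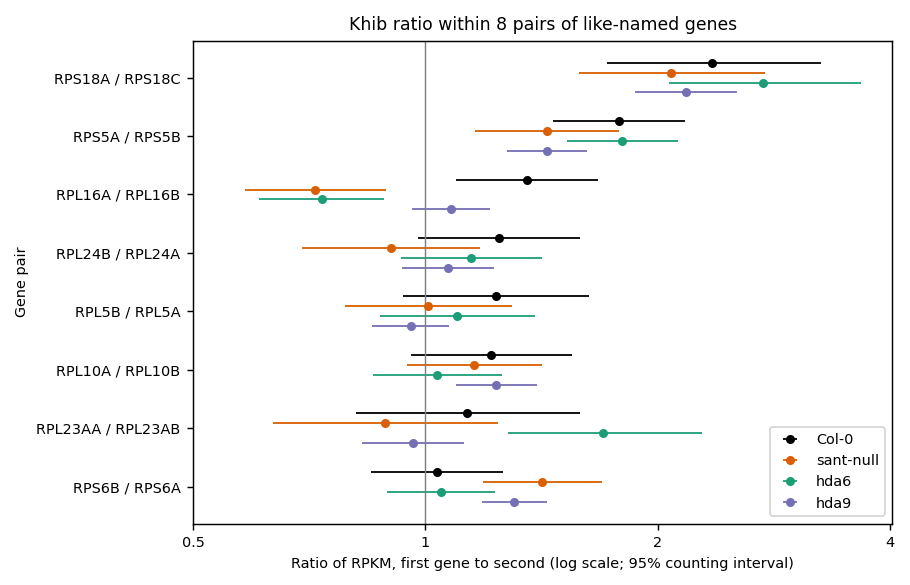
Ratio of Khib (RPKM, log scale) between the like-named genes of 8 pairs in the 4 genotypes, the first-named gene being the higher in Col-0; bars are 95% counting intervals and hold no replicate error. RPS18A stands above RPS18C and RPS5A above RPS5B in every genotype, and the RPL16 ratio goes from 1.35 in Col-0 to 0.720 in sant-null and 0.734 in hda6.

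The members lie on all 5 chromosomes, 17, 12, 12, 8 and 9 of them on chromosomes 1 to 5. The nearest protein-coding genes of at least 500 bp on either side that are not members, 113 in all, give a local comparison. Their median levels were 5.62, 8.34, 7.38 and 8.75 RPKM. The members were above the mean of their own flanking genes in 24, 28, 30 and 25 of 58 cases. Of the 112 flanking genes past the filter, 28 were at least 1.5-fold higher in sant-null, while hda6 had 5 such genes and hda9 had 56. In sant-null, hda6 and hda9 these are 25%, 4.46% and 50% of the flanking genes. The members had 32.8%, 25.9% and 51.7%, and all genes 23.7%, 9.08% and 43.7%. The median log2 ratio of the flanking genes was 0.32, 0.20 and 0.58 in the 3 mutants, beside 0.42, 0.42 and 0.64 for the members. The difference between members and flanking genes was not tested.

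Other lists of genes for protein synthesis were set beside the 58, with the same limits. Among 154 further cytosolic ribosomal protein genes past the filter, 39 were higher and 1 lower in sant-null, 30 and 0 in hda6, and 65 and 11 in hda9. The shares higher in this list were 25.3%, 19.5% and 42.2%, beside 23.7%, 9.08% and 43.7% of all genes. Its hda6 share was thus above that of all genes, as for the 58, while those of sant-null and hda9 were near it. Over all genes, 6.01%, 3.05% and 9.08% were lower. The median log2 ratios of this list were 0.38, 0.29 and 0.53. In this list UBQ1, a fusion of ubiquitin to a 60S protein, had the highest ratio in sant-null, with 40.9 against 4.77 RPKM (762 and 138 reads). Ubiquitin genes share sequence, so its value is uncertain.

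Among 36 genes for plastid ribosomal proteins, 8 were higher and 3 lower in sant-null, 5 and 0 in hda6, and 10 and 4 in hda9. The shares higher were 22.2%, 13.9% and 27.8%, beside 23.7%, 9.08% and 43.7% of all genes. The sant-null share was thus near that of all genes and the hda9 share under it. The gene emb2184 had 8.70 RPKM in sant-null and 6.81 in hda9 against 2.18 in Col-0. RPS1, for the plastid protein S1, had 10.4 RPKM in sant-null against 4.47. In hda6, EMB3137 had 13.6 against 7.25 RPKM and RPL27 had 10.5 against 5.73. In hda9 the plastid RPL24 gene had 6.54 against 1.82 RPKM.

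Among 30 ribosome biogenesis genes, 5 were higher and 1 lower in sant-null, 0 and 0 in hda6, and 17 and 2 in hda9. The shares higher were 16.7%, 0% and 56.7%, beside 23.7%, 9.08% and 43.7% of all genes. FZF, a ribosome assembly factor, had 3.73 RPKM in Col-0 and 7.85 RPKM in sant-null. NSN1, a nucleolar GTPase related to animal nucleostemin, had 9.70 RPKM in sant-null and 7.90 in hda6 against 5.29. In hda9, NOP10, of the pseudouridylation complex, had 4.79 against 1.29 RPKM, and RID2 had 6.45 against 2.21. Among 27 translation factor genes, 10, 7 and 9 were higher and 0 lower in each mutant. The shares higher were 37.0%, 25.9% and 33.3%, and the 25.9% in hda6 is the same share as of the 58. The elongation factor gene eEF-1Bb1 had 5.89 RPKM in sant-null and 8.39 in hda9 against 2.396. In hda6, ELF5A-3 had 7.49 against 4.16 RPKM and EIF4E, for the cap-binding protein, had 5.92 against 3.22. The differences between these lists and the 58 genes were not tested.

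**Figure D4:**
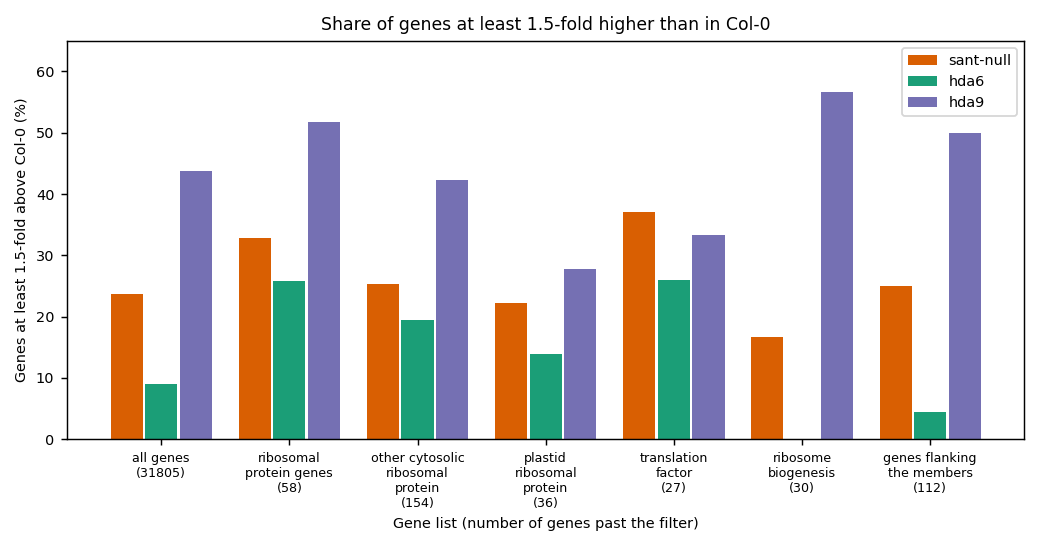
Share of genes (%) at least 1.5-fold higher than in Col-0 on the log2(RPKM + 1) scale in sant-null (orange), hda6 (green) and hda9 (purple), for all genes, the 58 ribosomal protein genes, other lists and the flanking genes, with the number of genes past the filter in parentheses; bars have no error because there is 1 value per genotype. In hda6 the bar of the 58 genes, 25.9%, stands above those of all genes, 9.08%, and of the flanking genes, 4.46%, and level with that of the translation factors, also 25.9%, with the other cytosolic ribosomal protein genes at 19.5%, although 0 of the 58 pass the limit in hda6 with equal medians.

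The authors also called islands, stretches of enriched reads, and tested each for a difference from Col-0. Here they were used on chromosomes 3 and 5, which hold 21 of the 58 genes. On the other chromosomes islands covered 38.4% to 71.4% of the protein-coding genes in the lowest 10% of Col-0 levels, against 0.461% to 1.24% on chromosomes 3 and 5, so an island there says little about a gene. On chromosomes 3 and 5, in that order, islands overlapped 32.9% and 30.6% of all genes compared in the sant-null table. These shares were 36.3% and 34.9% for hda6 and 31.1% and 28.8% for hda9. Of the 21 members there, an island overlapped 5 in the sant-null table, 6 in that of hda6 and 5 in that of hda9. Of these, 1 was called higher and 3 lower in sant-null, where 9.51% of the islands of these chromosomes were called higher and 74% lower. In hda6, 2 were higher (22.4% of islands) and 0 lower (37%). In hda9, 0 were higher (1.68%) and 5 lower (96.6%).

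AT3G02080 had gene levels of 5.25, 5.85, 8.34 and 8.02 RPKM. Its island had a fold of 1.21 and an FDR of 1.38e-07 against Col-0 in the authors' deposited table of sant-null. In the authors' deposited table for hda6 its island had a fold of 1.25, with an FDR of 1.26e-12. In the authors' deposited table for hda9 a shorter island, chr3:364601-365200 within the gene, had a fold of 0.627. The sant-null and hda6 islands reach past the start of the gene, which lies on the minus strand, so these folds cover unlike stretches. For RPS5A the authors' deposited table gives a fold of 1.17 in hda6, with an FDR of 0.0443, and one of 0.543 in hda9, over a shorter island. Among the members, AT5G48760 had the lowest island folds against Col-0, 0.620 in sant-null and 0.454 in the hda9 line, in the authors' deposited table. The folds of AT5G02870 in the authors' deposited table were 0.817, 0.936 and 0.532 in the 3 mutants. Those of AT3G09630 in the authors' deposited table were 0.896, 0.964 and 0.652. At AT3G02080 and RPS5A in hda9 the gene level was above that of Col-0 while the island fold was under 1. These islands cover only part of each gene, 600 of 1496 bp and 200 of 1722 bp, so level and fold are not of the same stretch. At AT3G02080 the island also holds 326 Col-0 reads, more than the 146 behind the Col-0 level of the whole gene. For hda9 the island holds 421 reads and the gene 465. Island counts and gene levels were thus not counted alike there, and the reason was not tested.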

How the data were processed

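The submitters' processing notes name TAIR10 as the build and the tools bedtools, SICER 1.0.3, Bowtie2 2.2.5 and CASAVA, without their roles. Chromatin was fixed with 1% formaldehyde for 15 min, per the labels. The authors deposited RPKM values per gene in 1 table per genotype, per the file headers. The way the libraries of a genotype were combined, and any use of input, are not given in the sources used here. The authors deposited read counts per island, RPM values scaled to a library total, folds (the ratio of normalised values) and a p-value with FDR in each direction, per the file headers. RPM values were not used further.

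The product of RPKM and gene length was a whole number of reads, to within 0.01, for 100% of values. Fold intervals are conditional exact (Clopper-Pearson) at 95%; ChIP reads may include PCR duplicates, so they cover counting error only. The planned test needed a value per library and could not be run. Coordinates are those of the authors' tables, counted from 1. Islands overlapped a gene by at least 1 bp and were called at an FDR under 0.05. Symbols came from a RefSeq table of TAIR10.1. No promoter or protein sequence was used here, so the planned motif search and protein identities were not computed, and families were limited to like-named genes. Python 3.11.15, pandas 2.3.3, numpy 2.4.6, scipy 1.17.1 and matplotlib 3.10.9 were used, and the steps were tested on simulated data.

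The members and lists were chosen with earlier results of these data known, and the lists were written from general knowledge; 1 locus that the reference names as a kinase was dropped. Named by rule were the 6 highest and 6 lowest members in Col-0, the 8 highest and 4 lowest ratios in each mutant, the pairs, and, of each list, the genes with the largest ratios where they have a symbol. Other members named were chosen after their values were seen. Alternatives tried were other pseudocounts, scalings, fold limits, filters and island rules.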

Additional observations from a re-analysis of the deposited data

How the results depend on the processing

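The members' median log2 ratio relative to all genes stayed above 0 in every alternative run, from 0.04 to 0.18 in sant-null, 0.13 to 0.25 in hda6 and 0.0084 to 0.17 in hda9. It fell by over 1.5 times in sant-null and hda9: from 0.14 to 0.08 and from 0.16 to 0.10 with a pseudocount of 5, to 0.04 and 0.05 with quantile normalization, and to 0.06 and 0.0084 with the trend removed. In hda6 it fell from 0.22 to 0.13 with a pseudocount of 5. Counts of members moved, and the cause was not tested beyond each setting's own construction. With a pseudocount of 5, members higher than in Col-0 were 8, 1 and 12 in sant-null, hda6 and hda9, and lower 0 in sant-null and 0 in hda9. With a pseudocount of 0.1, 24 were higher in hda6. The shares of all genes at these pseudocounts are not given here, so these counts do not compare the members with all genes. With equal medians, 4, 0 and 8 were higher, and 5 in sant-null and 9 in hda9 lower. With quantile normalization, 6, 1 and 5 were higher (7.37%, 3.68% and 13.9% of all genes), and 0 in sant-null and 0 in hda9 lower (7.78% and 15%). After removing the ratio's trend on the level in Col-0, 3, 2 and 0 were higher (7.07%, 3.39% and 6.21% of all genes). With the trend removed, the share of the 58 in sant-null was under that of all genes. In hda9 it was under that share with the trend removed and with quantile normalization. The hda6 share of the 58 was near that of all genes with the trend removed. It was under it with quantile normalization and with equal medians (0 members, against 2.11% of all genes). At a fold of 2, 4, 0 and 14 were higher, and 0 in sant-null and 0 in hda9 lower, again without the shares of all genes. Without PGY2 and AT1G33120, a setting chosen after seeing the data, 0 were lower in sant-null. Between mutants with equal medians, 0 members were higher in sant-null than in hda6 (6.83% of all genes), 2 lower in hda9 than in sant-null (8.5%), 6 higher in hda9 than in hda6 (18.8%) and 13 lower (22.6%). With islands of all chromosomes, also chosen after seeing the data, members higher and lower were 9 and 15 in sant-null, 13 and 3 in hda6, and 7 and 21 in hda9. The shares of islands called over all chromosomes are not given here, so these counts cannot be read against them. Islands outside chromosomes 3 and 5 also say little about a gene, as described above. At an FDR under 0.001, 1 was higher in hda6. In all, 36 alternative values moved; the other 58 were counts within 1.5 times the main count or medians that shifted by less than the counting error of a single member. A member's counting interval reached 0.32, 0.30 and 0.26 to either side on the log2 scale at the median, so depth limits single ratios to about that. No paired analysis was possible because the tables hold 1 value per genotype, and for the same reason no replicate could be left out. The settings that needed protein or promoter sequences were not run.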

Other observations

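Of the 4 genes listed as regulators of ribosomal protein synthesis, 1, 1 and 2 were at least 1.5-fold higher than in Col-0 for sant-null, hda6 and hda9, against 23.7%, 9.08% and 43.7% of all genes. TCP20, a transcription factor known to bind promoters of ribosomal protein genes, had levels of 4.97, 10.4, 8.67 and 11.2 RPKM, listed with Col-0 first and then the mutants as above. S6K2, a kinase of the S6 protein, had 5.94, 9.29, 7.51 and 10.6 RPKM.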
